A study of Schizosaccharomyces pombe with 3 samples.

Results

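The 10 heat shock and chaperone genes described here are hsp9, hsp16, hsp20, hsp78, hsp104, ssa1, ssa2, wis2, hsf1 and swo1 of the fission yeast Schizosaccharomyces pombe. They were chosen by name, with earlier results of these data known. Each has an intergenic and a coding feature on the array, so they make up 20 of 10213 features. The study asked where the corepressor subunit Ssn6 sits on chromatin. All 3 arrays come from 1 group: cells with Ssn6 fused to green fluorescent protein (GFP), growing in mid log phase in rich YES medium, harvested at room temperature, with no heat shock applied. On each array, chromatin precipitated with an antibody against GFP was compared with input chromatin, and the labels describe the material as coming from 3 separate experiments. No untagged strain and no mock precipitation was analysed here, so the background of the antibody at these genes was not measured.

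Heat shock proteins keep other proteins folded. Hsp70 and Hsp90 proteins bind unfolded or immature clients through cycles driven by ATP, Hsp100 proteins pull aggregates apart, and small heat shock proteins hold unfolded proteins in a soluble state. Their genes are classic targets of heat shock factor, which binds repeats of the unit nGAAn in alternating orientation, while the stress MAP kinase pathway of fission yeast acts through the transcription factor Atf1. Ssn6 works with the Tup11 and Tup12 proteins in a complex known for repressing genes, many of them stress or nutrient genes, that specific DNA-binding proteins bring it to.

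The measured value is the log2 ratio of precipitate over input at a feature, with each array centred on its own median. A percentile gives the rank of that ratio among all measured features of 1 array, with 100 at the top. Features with a ratio on all 3 arrays (3960 in all) were tested against 0 with limma, and those with an adjusted p under 0.05 were called enriched or depleted. The direction of the ratio is not settled. The labels place the precipitate in 1 dye on every array, but read that way the ratios of replicate 2 ran against the others across the tested features (r = -0.48 to replicate 1 and -0.54 to replicate 3). The authors' deposited values followed channel B on replicates 1 and 3 (correlations across spots of 0.75 and 0.56, against -0.06 and -0.13 for channel A) and followed channel A more closely on replicate 2 (0.90, against 0.66 for channel B). Those channels were taken as precipitate here, after the data were seen, which turned both negative correlations to 0.48 and 0.54, beside 0.72 between replicates 1 and 3. Values with channel B over channel A throughout are given beside the results, and under this reading every replicate 2 value below changes sign. The sign of all ratios together could also be the opposite.

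Completeness differed between the arrays. A ratio was present at 95.5% of feature spots on replicate 2, at 49.0% on replicate 1 and at 37.7% on replicate 3, the rest having been rejected in at least 1 channel. Of the 10 upstream features 3 had a ratio on all arrays, 2 on 2 arrays and 5 on replicate 2 alone. Of the 10 coding features these numbers were 4, 2 and 4. Statements about all 10 genes therefore rest on replicate 2, the array whose direction is in doubt. A precipitate signal is called dim below when it did not exceed the 95th percentile of 1624 negative-control spots (as mean pixel intensity, 1959 for replicate 1, 222.7 for replicate 2 and 4452 for replicate 3), and a ratio with a dim signal is not exact. At this limit 36.1%, 100% and 15.6% of the tested features were above it on replicates 1, 2 and 3. No such limit was set for the input, so ratios over a weak input are not flagged.

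The intergenic feature that carries a gene's name is taken as the region upstream of that gene, whose exact extent on the array is not given in the sources used here. Coordinates below come from a match of gene names to RefSeq assembly ASM294v3. The sequences are the 300 bases before the annotated transcript start, shown for the 5 genes whose upstream feature had a median percentile of 85 or more and whose window does not overlap a neighbouring protein-coding transcript. Capitals mark 2 kinds of element found by a search of both strands: a heat shock element (GAANNTTCNNGAA or TTCNNGAANNTTC with 3 units, or else GAANNTTC with 2 units) and the 9-base string GGGTTAGGG, which was added to the search after these sequences had been read. The windows of hsp104 and hsp9 hold neither.
ssa1, chrI:2297965-2298264, minus strand: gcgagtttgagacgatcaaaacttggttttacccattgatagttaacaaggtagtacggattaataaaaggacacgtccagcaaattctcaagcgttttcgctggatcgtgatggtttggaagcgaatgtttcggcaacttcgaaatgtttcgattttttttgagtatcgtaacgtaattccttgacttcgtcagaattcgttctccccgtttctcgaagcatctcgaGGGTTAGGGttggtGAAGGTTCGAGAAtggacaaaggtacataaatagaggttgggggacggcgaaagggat
swo1, chrI:3891140-3891439, minus strand: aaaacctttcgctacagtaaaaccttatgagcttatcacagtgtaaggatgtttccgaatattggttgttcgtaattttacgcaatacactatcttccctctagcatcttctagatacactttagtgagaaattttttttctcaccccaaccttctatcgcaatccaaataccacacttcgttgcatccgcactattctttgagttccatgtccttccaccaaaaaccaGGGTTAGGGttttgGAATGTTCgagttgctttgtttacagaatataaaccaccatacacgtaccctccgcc
hsp104, chrII:3615270-3615569, minus strand: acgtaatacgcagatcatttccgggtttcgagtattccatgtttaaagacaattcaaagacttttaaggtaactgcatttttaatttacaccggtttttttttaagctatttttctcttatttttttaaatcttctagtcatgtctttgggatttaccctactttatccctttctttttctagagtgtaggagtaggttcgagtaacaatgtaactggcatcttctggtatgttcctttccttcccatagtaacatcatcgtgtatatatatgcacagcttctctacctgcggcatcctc
hsp9, chrI:5320677-5320976, minus strand: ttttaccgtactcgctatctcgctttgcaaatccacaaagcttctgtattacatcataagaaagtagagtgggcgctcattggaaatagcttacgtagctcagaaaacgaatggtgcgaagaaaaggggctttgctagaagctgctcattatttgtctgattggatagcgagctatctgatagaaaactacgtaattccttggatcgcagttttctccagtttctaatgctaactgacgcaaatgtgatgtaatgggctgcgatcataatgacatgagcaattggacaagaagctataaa
hsp16, chrII:2660993-2661292, minus strand: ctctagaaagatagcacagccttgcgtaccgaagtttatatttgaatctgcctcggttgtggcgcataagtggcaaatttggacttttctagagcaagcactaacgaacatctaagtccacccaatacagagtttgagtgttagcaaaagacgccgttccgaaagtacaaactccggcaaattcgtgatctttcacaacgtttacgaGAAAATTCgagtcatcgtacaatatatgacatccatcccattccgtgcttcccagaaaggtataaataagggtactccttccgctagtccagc

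The 3-unit heat shock element was found at 3 of the 10 genes, in the 30-base sites printed next with the element and the string GGGTTAGGG in capitals. It ended 45, 46 and 62 bases before the transcript start of ssa1, ssa2 and wis2.
ssa1, chrI:2298009-2298038, minus strand: gaGGGTTAGGGttggtGAAGGTTCGAGAAt
ssa2, chrIII:2056968-2056997, plus strand: aGGGTTAGGGttttggGAAACTTCGAGAAc
wis2, chrI:4931225-4931254, minus strand: ttttaatacagtatgtTTCTAGAAGTTTCg
Of 5112 promoters of the same length, 25 (0.489%) held the 3-unit element. The 2-unit form GAANNTTC, present in 11.3% of promoters, was found at 6 of the 10 genes: at ssa1, ssa2 and wis2, where it overlaps the 3-unit element, and at swo1, hsp16 and hsp20. The form TTCNNGAA, present in 9.76%, was found at ssa1, ssa2 and wis2. TGACGT, part of the site known for Atf1, occurred in 6.03% of promoters and among these genes at ssa2 alone. CCCCT, the stress response element known from budding yeast, occurred in 511 of the 5112 and here at hsp9 alone. GGGTTAGGG occurred in 25 promoters (0.489%) and here at ssa1, ssa2 and swo1. Windows of hsp104, hsp78 and hsf1 held none of these strings.

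Both Hsp70 genes of the set, with the array name hsp70 taken as ssa2, had upstream features that were called enriched. The gene ssa1 encodes a cytosolic Hsp70. Its upstream feature had log2 ratios of 1.61, 2.78 and 2.20 on replicates 1, 2 and 3. All 3 were far above the array medians, and the precipitate signal (3977, 26477 and 7773 units, against 722, 4453 and 1106 in the input) was above the negative-control limit on each array. The mean was 2.20 ± 0.59 (SD, n = 3 arrays, as for all means of 3 below), or 4.59-fold, with a limma adjusted p of 0.00264, and it ranked 50 among 1327 tested intergenic features. Read as channel B over channel A throughout, the mean was 0.34 (limma adjusted p = 0.944). Over the ssa1 coding sequence, 1935 bases long, only replicate 2 gave a ratio, and it lay at 0.00, the middle of that array.

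An array name hsp70 is given by the annotation to both ssa1 and its paralog ssa2. Since ssa1 has features under its own systematic name, the hsp70 features were taken as ssa2, which encodes another cytosolic Hsp70. The coding sequences of these paralogs were identical at 82.9% of 1935 aligned bases, so the coding features may share signal, and the assignment itself was not tested. The upstream hsp70 feature had ratios of 1.49, 1.95 and 1.66, all above 0. Its 2 spots lay at 1.30 and 1.68 on replicate 1 and at 1.23 and 2.09 on replicate 3. Its mean was 1.70 ± 0.23, or 3.25-fold (limma adjusted p = 0.00548, rank 106), and its precipitate signal was dim on replicate 3 (3921 units against the limit of 4452). With channel B over channel A throughout the mean was 0.40 (limma adjusted p = 0.928). The hsp70 coding feature had a ratio on replicate 2 alone, at 0.17.

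The gene swo1, listed in the annotation as hsp90, encodes the cytosolic Hsp90. Its upstream feature gave 1.76 on replicate 1, from a single spot, and 2.05 on replicate 2, and on replicate 3 the input spots were rejected. The input of the other spot on replicate 1 was rejected too. Both ratios stood near the top of their arrays, at the 95.7th and 98.1st percentiles. A fit that took features with at least 2 arrays gave a mean of 1.91 and a limma adjusted p of 0.0126. In the single orientation of the labels the values were 1.76 and -2.05, and their mean turned to -0.14. The coding feature was lower on both arrays, at 0.42 and 0.67, and its precipitate was dim on replicate 1. The gene wis2 encodes a cyclophilin-type co-chaperone that binds Hsp90. Its upstream feature, with the 3-unit heat shock element, was at the middle of replicate 2 (0.01, percentile 51.3) and had no ratio on the other arrays. Its coding feature gave -0.60 on replicate 2 and 0.75 on replicate 3, values of opposite sign, of which the second had a dim precipitate signal.

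Upstream of the Hsp100 genes the values on replicate 2 lay far apart. The gene hsp104 encodes the cytosolic disaggregase. On replicate 1 its upstream feature gave 2.27, from a single spot with a dim precipitate signal and an input of 218 units. The input of the other spot was rejected. On replicate 2 the feature gave 1.15. Both values were high in their arrays (percentiles 98.3 and 92.3), although they differed by more than 1 log2 unit, and the fit on at least 2 arrays gave a mean of 1.71 with a limma adjusted p of 0.0279. Read as channel B over channel A throughout, the values were 2.27 and -1.15 and the mean 0.56. Over its coding sequence the ratios were 0.23, -0.10 and 0.72, with a mean of 0.28 ± 0.41 that did not pass the test (limma adjusted p = 0.556), and the precipitate was dim on replicates 1 and 3. The gene hsp78 encodes the mitochondrial Hsp100. Its upstream feature was the lowest of the 10 on replicate 2, at -0.54 (percentile 14.6), and it had no ratio elsewhere. Its coding feature stood higher there, at 0.49.

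Small heat shock genes gave mixed values. The gene hsp9 encodes a small stress protein of the LEA-like family related to budding yeast Hsp12. Its upstream feature had ratios of 1.09, 1.84 and 1.49, all above 0 and none with a dim precipitate signal. The mean was 1.47 ± 0.37, or 2.77-fold (limma adjusted p = 0.0123, rank 141), and 0.25 with channel B over channel A throughout (limma adjusted p = 0.943). Without replicate 3 the call was lost, at a mean of 1.46 and a limma adjusted p of 0.0854. Its coding sequence is only 207 bases long, and the coding feature gave 1.30 on replicate 2 (percentile 93.9).

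The gene hsp16 encodes an alpha-crystallin type chaperone. It was the one gene whose coding feature was called enriched, with ratios of 1.72, 1.45 and 2.02, the last from a single spot. On replicate 3 the input of its other spot was rejected. The mean was 1.73 ± 0.28, or 3.32-fold (limma adjusted p = 0.00544). This ranked 26 among 2621 tested coding features, and the precipitate was above the limit on all 3 arrays. With channel B over channel A throughout the mean was 0.76 (limma adjusted p = 0.838), and without replicate 3 it was 1.59 and no longer passed (limma adjusted p = 0.0549). Its upstream feature gave a ratio on replicate 2 alone, at 1.85 (percentile 97.4), 0.40 above the coding value on that array. The coding sequence is 432 bases long. The length of the precipitated fragments is not given in the sources used here, so whether the coding signal is separate from the upstream one was not tested.

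The gene hsp20, also of the alpha-crystallin family, went the other way over its coding sequence, with ratios of -1.22, -0.41 and -1.36. All 3 were below 0, but the mean of -0.999 ± 0.51 did not pass the test (limma adjusted p = 0.0598), and the precipitate was dim on replicates 1 and 3. Without replicate 2 the mean was -1.29 and passed as depleted (limma adjusted p = 0.0276), beside 19.5% of coding and 2.41% of intergenic features depleted in that fit. Its upstream feature was near the middle of replicate 2, at -0.08. The regulator gene hsf1, spelled hsf on the array, encodes heat shock factor itself. Its upstream feature gave 0.39 on replicate 2, and its coding feature gave -0.75, 0.24 and -0.08, with a mean of -0.20 ± 0.50 (limma adjusted p = 0.703) and a dim precipitate signal on replicates 1 and 3.

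**Figure D1:**
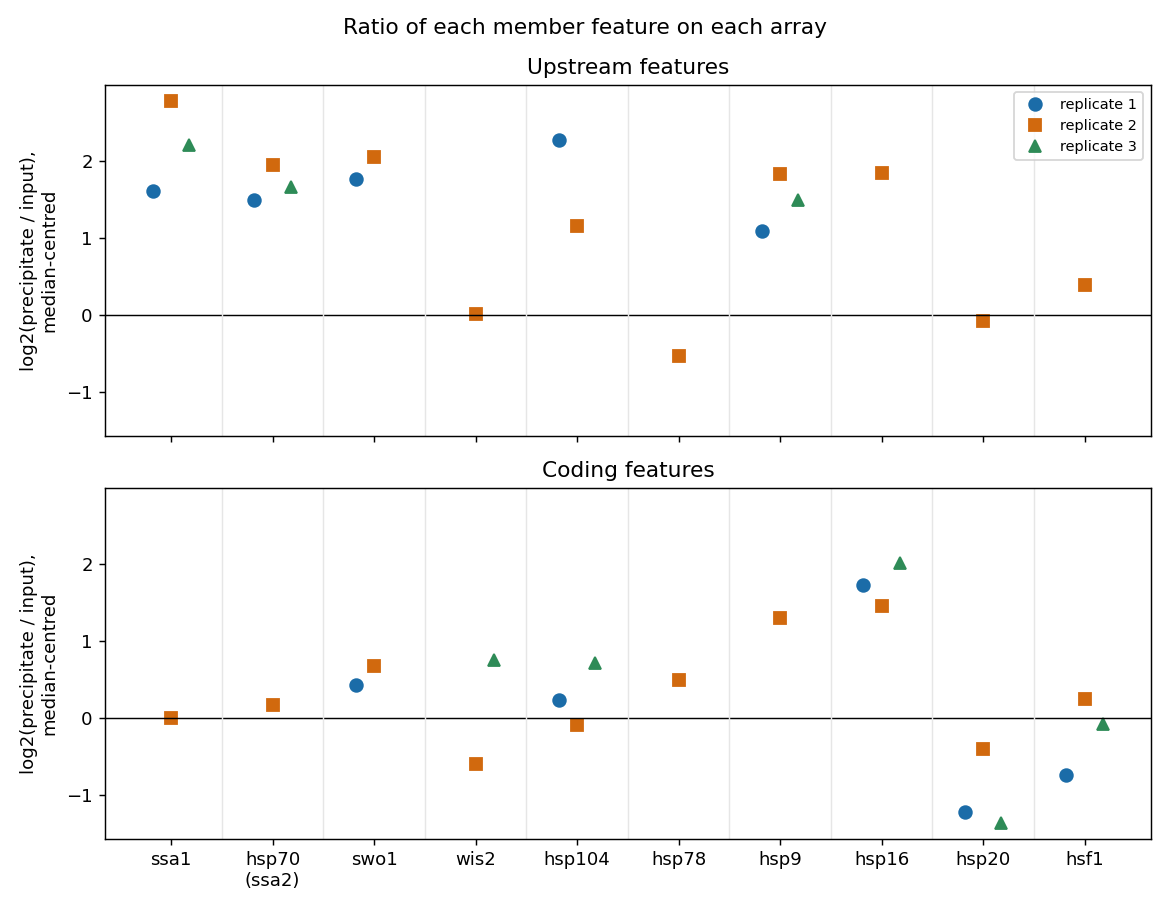
Log2 ratio of precipitate over input (vertical axis, median-centred) of each of the 10 genes on each array, with upstream features in the upper panel and coding features in the lower one. Each point is the mean of a feature's spots on 1 array, and a missing point is an array without a ratio. Upstream ssa1, hsp70 and hsp9 have 3 points each, from 1.09 to 2.78, whereas upstream wis2, hsp78, hsp16, hsp20 and hsf1 rest on replicate 2 alone.

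Counted together, all 3 tested upstream features were called enriched, against 19.7% of all tested intergenic features. Of the 4 tested coding features 1 was enriched, against 2.48% of tested coding features, and 0 were depleted, against 0.904% of intergenic and 7.9% of coding features. With channel B over channel A throughout, limma called 0 of these and 0.0% of all features, with 138 of the 3960 at an unadjusted p under 0.05. Without replicate 2, which leaves arrays of 1 orientation, upstream ssa1 (1.91, limma adjusted p = 0.0151), hsp70 (1.57, 0.017), hsp9 (1.29, 0.0301) and the hsp16 coding feature (1.87, 0.0145) passed too, beside 19.7% of intergenic and 2.67% of coding features enriched. The features tested are those with signal in both channels of every array, so these counts do not describe all 10 genes.

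The series defined its binding lists by a median percentile of 85 or more, a rule that also takes features measured on fewer arrays. By this rule 6 of 10 upstream features were listed, those of ssa1, ssa2, swo1, hsp104, hsp9 and hsp16, against 17.0% of all intergenic features. The coding features of hsp9 and hsp16 were listed, against 5.3% of coding features. With channel B over channel A throughout, 4 upstream features were listed, those of ssa1, ssa2, hsp9 and hsp78, against 14.1% of intergenic features, and 1 coding feature, that of hsp16, against 5.85%. Upstream swo1 then stood at a median percentile of 48.8, hsp104 at 53.0 and hsp16 at 2.60. On replicate 2 alone the same 6 upstream and 2 coding features stood at or above the 85th percentile, against 20.1% of intergenic and 9.93% of coding features. Turned, that array had 1 upstream and 1 coding feature of the set there, against 12.8% and 17.1%. The coding feature of swo1 lay just outside, at percentile 84.3 on that array. The median replicate 2 ratio was 1.49 over the 10 upstream features and 0.07 over 4908 intergenic features. Over the coding features it was 0.21, and -0.08 over all 4903.

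**Figure D2:**
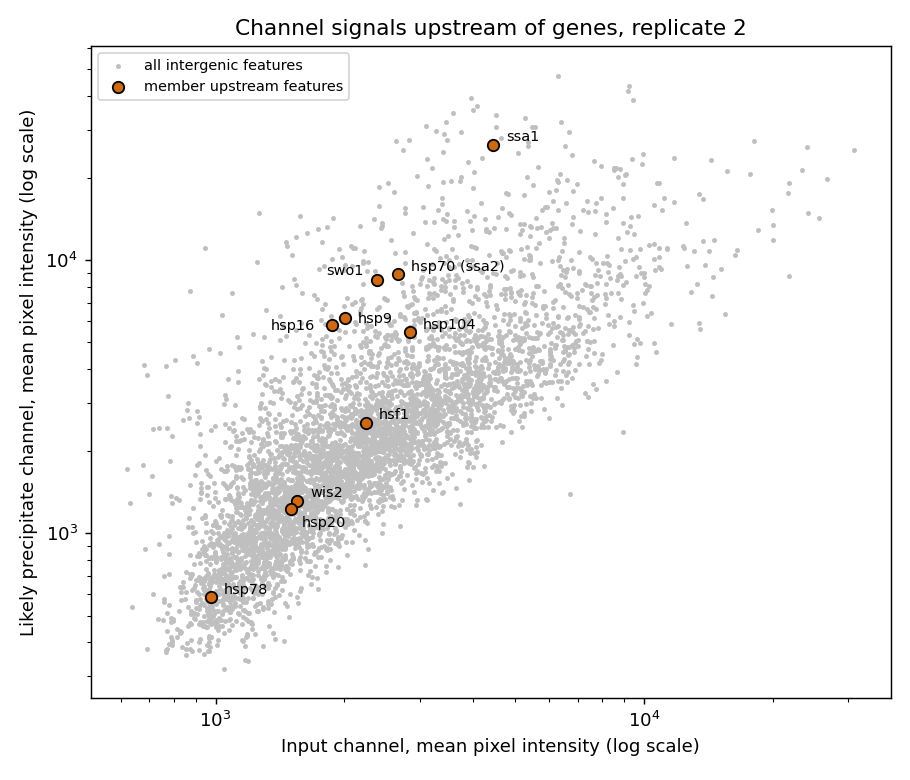
Mean pixel intensity upstream of genes on replicate 2, with the input channel on the horizontal and the likely precipitate channel on the vertical axis, both on log scales. Grey points are all intergenic features and orange points the upstream features of the 10 genes. The features of swo1, hsp70, hsp16, hsp9 and hsp104 lie above the main cloud, ssa1 stands far higher in both channels, and hsf1, wis2, hsp20 and hsp78 lie within the cloud.

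The order upstream on replicate 2 ran from ssa1 (2.78) through swo1 (2.05), hsp70 (1.95), hsp16 (1.85), hsp9 (1.84), hsp104 (1.15), hsf1 (0.39), wis2 (0.01) and hsp20 (-0.08) to hsp78 (-0.54). Spots of a feature gave a sense of the error within this array. They ran from 2.70 to 2.86 at ssa1, from 1.94 to 2.16 at swo1 and from 1.89 to 2.01 at hsp70. The ranges were 1.77 to 1.93 at hsp16 and 1.81 to 1.86 at hsp9. Adjacent genes from swo1 to hsp9 overlapped, whereas swo1 and hsp70 lay wholly above hsp9. Spots of 1 array do not measure the spread between experiments. Across arrays the order was checked for the 3 tested features. Upstream ssa1 exceeded hsp70 by 0.50 ± 0.36 and hsp9 by 0.73 ± 0.21, and hsp70 exceeded hsp9 by 0.23 ± 0.15, each with the same sign on 3 of 3 arrays. The exact sign-flip permutation p was 0.25 for each of the 3 pairs (two-sided, adjusted p = 0.25), the smallest that 3 arrays allow. The order was not the same with channel B over channel A throughout, where ssa1 minus hsp70 was -0.05 ± 0.70, ssa1 minus hsp9 was 0.096 ± 0.91 and hsp70 minus hsp9 was 0.15 ± 0.26, each positive on 2 of 3 arrays.

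Upstream and coding features of a gene were compared within an array, where centring cancels. On replicate 2 the upstream feature was higher in 9 of 10 genes. The same share over all genes was not computed, and intergenic features ran higher on that array (median 0.07, against -0.08 for coding features). In the set the difference was 2.78 at ssa1, 1.78 at hsp70, 1.38 at swo1 and 1.25 at hsp104. It lay between 0.15 and 0.61 at wis2, hsp9, hsp16, hsp20 and hsf1. Only hsp78 ran the other way, at -1.03. On replicate 1 both features were measured for swo1 and hsp104 alone, with differences of 1.34 and 2.04. No gene had both features on all 3 arrays (0 of 10) and 0 had both on replicate 3, so the difference could not be tested. With channel B over channel A, 1 of 10 genes was higher upstream, as follows from the change of sign.

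**Figure D3:**
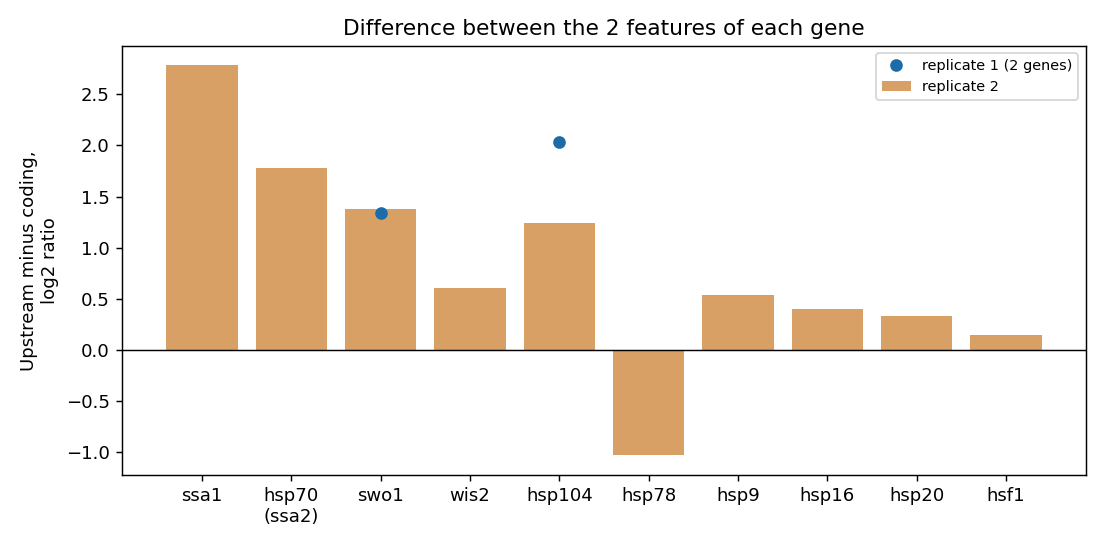
Upstream minus coding log2 ratio (vertical axis) of each gene, with bars for replicate 2 and points for the 2 genes also measured on replicate 1. The bars fall from 2.78 at ssa1 to -1.03 at hsp78, and the Hsp70, Hsp90 and hsp104 genes have differences above 1, whereas the small heat shock genes lie between 0.33 and 0.54.

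The regions were then placed in the genome. The gene ssa1 lies head to head with upf3, a gene of nonsense-mediated mRNA decay, across 1225 bases between their coding sequences. The intergenic feature named for upf3 was higher than that of ssa1 on every array, at 2.46, 3.09 and 2.32 against 1.61, 2.78 and 2.20. Its mean was 2.62 against 2.20 (limma adjusted p = 0.000927 against 0.00264). These features share 1 gap, so the signal cannot be assigned to either gene. At hsp9 the gap of 1921 bases is shared with ski7, whose feature gave 0.87 on replicate 1 and -0.24 on replicate 2, below the hsp9 feature on both arrays. At hsp104 the gap of 1608 bases is shared with pcn1, the sliding clamp gene, whose feature gave 0.27 on replicate 2 against 1.15 for hsp104. The hsp16 gap of 874 bases is shared with SPBC3E7.17, to which no array name was matched. The other 6 genes follow a neighbour in the same orientation.

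For each tested upstream feature the most similar patterns were sought among all tested intergenic features, by Euclidean distance over the 3 arrays. Closest to ssa1 were the features of pfk1, which encodes phosphofructokinase (distance 0.043), tgd1 (0.080) and SPAC30D11.02c (0.159). The feature of pfk1 gave 1.61, 2.78 and 2.25, which is within 0.05 of ssa1 on every array. Closest to hsp70 were those of cts2 (0.225), pho842 (0.228) and SPCC594.03 (0.307). Closest to hsp9 was yhb1, a flavohemoglobin gene (0.103), and SPCC4F11.05 (0.198) was also among its nearest. None of these named features belongs to a heat shock gene of the set, and each distance rests on 3 values. Only the 3 tested upstream features of the set were in this search, so that absence says little about the set.

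Motifs were set against the ratios on replicate 2, where most genes have a value. Among genes outside the set with the 3-unit heat shock element, 21 had an upstream ratio. Their median was 0.05 and 7 of them (33.3%) were at or above the 85th percentile, against 20.1% of all intergenic features. With that array turned, 3 of the 21 (14.3%) were there, against 12.8%. The highest were adh1, the alcohol dehydrogenase gene, at 3.13 and SPBPB2B2.05 at 2.08, whereas rrp6 gave -0.78 and shg1 gave -0.75. Within the set, ssa1 and hsp70 were high with this element and wis2 was not. Upstream swo1, hsp16, hsp9 and hsp104 were high without it, and of these swo1 and hsp16 held the 2-unit form GAANNTTC. For GGGTTAGGG, 18 genes outside the set had a ratio, with a median of 0.72 and 9 of them (50%) at or above the 85th percentile. With the array turned, 1 of the 18 (5.56%) was there. These 18 include histone genes that lie in pairs across 1 gap, such as hht3 (1.38) and hhf3 (1.30), and so are not independent. Because the string was chosen after the sequences were read, these values are a description only.

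Other chaperone genes were counted in the same way. From a list of 41 further genes, 35 upstream and 37 coding features were matched to array names. Only 3 upstream features were tested, and 0 were called: cct5 and cct2, subunits of the chaperonin that folds actin and tubulin, had means of 0.91 ± 0.27 (limma adjusted p = 0.0635) and -0.24 ± 0.25 (limma adjusted p = 0.611), and hsp10, the mitochondrial co-chaperonin, had 0.73 ± 0.42 (limma adjusted p = 0.129). Of 17 coding features tested, 0 were enriched and 4 were depleted, against the 7.9% of coding features given above. The highest, hsp3105 of the DJ-1 family, had a mean of 1.06 ± 0.67 (limma adjusted p = 0.0593).

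The 4 depleted coding features were those of ssz1, cns1, scj1 and bag101. Depletion passed with a narrow spread at ssz1, a ribosome-associated Hsp70 (-1.27 ± 0.12, limma adjusted p = 0.0182), and at cns1, an Hsp90 co-chaperone (-1.16 ± 0.08, limma adjusted p = 0.0267). It was uneven at scj1, an Hsp40 gene (-1.24 ± 0.83, limma adjusted p = 0.0449). At bag101, a nucleotide exchange factor gene of Hsp70, the ratios were -3.14, -0.27 and -3.07, so that replicate 2 stood apart from the others (mean -2.16 ± 1.63, limma adjusted p = 0.022). These calls were not firm: all 4 were lost without replicate 1 (limma adjusted p from 0.052 to 0.285), without replicate 3 (0.101 to 0.229), with local background subtracted and with channel B over channel A throughout. On replicate 2, 5 of 35 upstream and 3 of 36 coding features of these further genes were at or above the 85th percentile, against 20.1% of intergenic and 9.93% of coding features, with medians of -0.13 and -0.26. With that array turned, 12 of 35 and 7 of 36 were there, against 12.8% and 17.1%. The upstream feature of hsp3105 was the highest of them, at 1.96 (percentile 97.8).

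**Figure D4:**
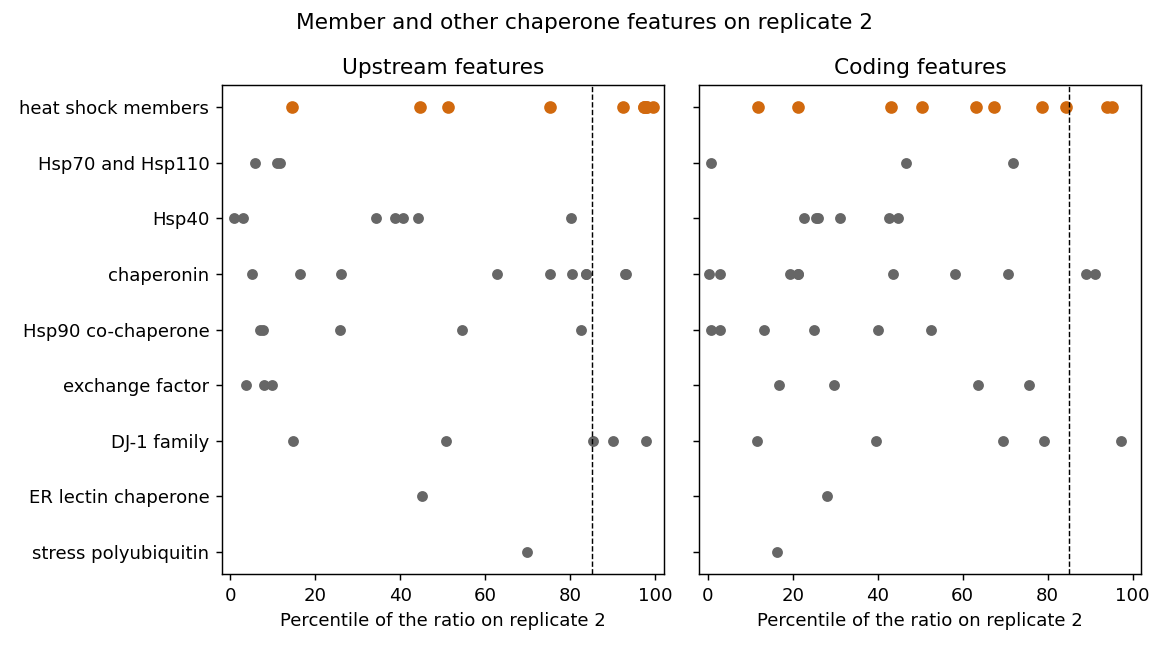
Percentile of the ratio on replicate 2 (horizontal axis) for the 10 genes (orange) and for 41 other chaperone genes by family (grey), with upstream features on the left and coding features on the right. The dashed line marks the 85th percentile. In the upstream panel 6 of 10 orange points and 5 of 35 grey points lie at or beyond the line, with chaperonin and DJ-1 family genes holding the grey ones.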

How the data were processed

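Per the labels, precipitated and input DNA were amplified in 2 steps and labelled with Cy5 and Cy3 without a dye swap, and arrays were read with TIGR Spotfinder, whose version is not given in the sources used here. The deposited scanner files hold spot intensity for channels A and B. The deposited series table holds log10 values that the authors normalised to the median in GeneSpring, per the labels. Its values may be of 1 channel rather than a ratio, which was not tested, and they served as an alternative only.

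Integrated intensities were used without background subtraction. Spots rejected in either channel were left out, log2 ratios were centred on each array's median over features, and spots of a feature were averaged. Channel A was the numerator for replicate 2 and channel B for the other arrays. Features with a ratio on all 3 arrays were fitted together in limma 3.58.1 (R 4.3.3; lmFit, eBayes, two-sided against 0, Benjamini-Hochberg, threshold 0.05). The script was tested on simulated data. The number of arrays limits the precision.

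All 10 genes are named whatever their values. Of the other chaperones, called features and otherwise the highest and lowest tested of each kind are named, plus cct2, cct5 and hsp10 as all 3 tested upstream features, and the hsp3105 upstream feature, which was chosen after its value was seen. The motif examples and pfk1 values were chosen in the same way. For each gene the head-to-head neighbour, and for each called upstream feature the 3 closest patterns, are named, except 1 that is not reported here. The genes and lists were chosen with earlier results of these data known. Of the 41 genes, sks2, ssc1, lhs1 and caj1 had no array name of their own, and ssb1 was dropped because the annotation gives that symbol to a replication factor. Alternatives covered orientation, background, normalization, centring, the filters on features and each array left out.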

Additional observations from a re-analysis of the deposited data

Results flagged for a closer look

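At 3 features of the set the precipitate gave signal above the negative-control limit on an array where the input spots were rejected, so no ratio was formed and the values enter no comparison above. Upstream of hsp104 the precipitate signal on replicate 3 was 4609.5 mean pixel intensity units, against a limit of 4452. Over the hsp9 coding sequence it was 2383 on replicate 1, against 1959. Upstream of hsp16 it was 2075.5 on replicate 1, against the same limit. These are 3 of 17 cases with signal in the precipitate, among 22 cases of a feature without a ratio on replicate 1 or 3. Signal in 1 channel alone gives no enrichment, and the reason for the rejected input spots was not tested.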

How the results depend on the processing

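With channel B as numerator everywhere, 0 upstream and 0 coding features of the set were called, 1 of 10 genes was higher upstream than over its coding sequence, and 5 features were listed by percentile, against 3, 1, 9 and 8. The authors' deposited values gave 0 upstream and 0 coding calls, and 0 enriched and 0 depleted features among all 7198, with 597 at an unadjusted p under 0.05 in limma. These values may not be a ratio, so their counts may not measure enrichment. Features on at least 2 arrays gave 5 upstream calls of 5 tested, where 423 of all 6351 features were enriched, a share not split by class here. Where every array had to exceed the negative-control limit, 1 of the 3 that could be ranked was listed. Percentiles were then taken among the remaining features only, so this count is not on the scale of the 8 listed. Upstream ssa1 and hsp9 and coding hsp16 were still called enriched there, where 223 of all 447 features were enriched, a share not split by class here. Other chaperones had 3 enriched features of 20 tested with loess (upstream cct5 and hsp10, coding hsp3105), against 0, where 459 of all 3960 features were enriched. With classes centred separately they had 1 of 20 (coding hsp3105), where 266 of all 3960 were enriched. Leaving out 1 array at a time gave 3 to 4 upstream calls (3 to 5 tested) and 0 to 1 coding calls (4 to 5 tested). It gave 0 to 0 enriched other chaperone features and 6 to 8 listed features. Without replicate 2, 19.7% of all tested intergenic and 2.67% of coding features were enriched. Without replicate 1 or 3 the shares were not split by class here. The count of genes higher upstream comes from replicate 2 and so stayed at 9 to 9 without replicate 1 or 3, and it could not be had without replicate 2. Without replicate 3, upstream swo1 (limma adjusted p = 0.0182) and hsp104 (0.0459) passed, upstream hsp9 did not, and coding hsp16 did not. The mean of coding hsf1 turned from -0.20 to 0.093 with local background subtracted and 0.017 with classes centred separately, ranged from -0.41 to 0.080 with 1 array left out. That of coding hsp104 turned to -0.11 with the deposited values, which may not be a ratio. Coding hsp20 passed as depleted with normexp (-2.005, limma adjusted p = 0.0349) and loess (-0.93, 0.0329), where 302 and 263 of all 3960 features were depleted. Leaving out the ambiguous hsp70 name, chosen after seeing the data, left 2 of 2 upstream calls. Among the depleted chaperones scj1 was also lost with classes centred separately (limma adjusted p = 0.0658) and with at least 2 arrays (0.0501), and cns1 with classes centred separately (0.0642). The cause of these changes was not tested. Over all features, against 327 enriched and 222 depleted of 3960, local background subtraction gave 135 and 7 of 3861. Median pixel intensity gave 323 and 363 of 3960. Features on at least 2 arrays gave 423 and 178 of 6351, and the negative-control limit 223 and 13 of 447. Leaving out replicate 1, 2 or 3 gave 265 and 58 of 4535, 331 and 548 of 3961, or 209 and 9 of 5775. No paired analysis was possible because the series has 1 group. Rejected spots on replicates 1 and 3 limit the set to 7 tested features of 20.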
